A study of Mus musculus with 6 samples.

Results

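The genes described here build the degradative lysosome: its cathepsins, its glycosidases, its lipid enzymes and carriers, a few further soluble proteins, its membrane proteins and the proton pump (V-ATPase) that acidifies it. They are 35 genes chosen by symbol, and every probe set that the platform annotation gives to one of those symbols alone was taken. That found 34 of the 35 genes, of 18193 genes with such a probe set on the array, in 80 probe sets. Cd63, a tetraspanin of late endosomes and melanosomes, is not analysed here. Each gene was represented by its brightest probe set over all arrays, and the other probe sets of a gene are described after the classes.

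Lysosomes receive material from endocytosis and autophagy and break it down with hydrolases that work at acid pH. Most hydrolases reach them by mannose 6-phosphate sorting, the V-ATPase pumps protons in, and heavily glycosylated proteins line the membrane. Melanosomes of pigment cells are related organelles that form from endosomes and share part of this machinery. Oa1, now named Gpr143, is a G protein-coupled receptor that sits in melanosomes and endolysosomes of pigment cells, and its loss causes ocular albinism.

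Expression was measured on Affymetrix mouse arrays in 3 samples from Oa1-/- embryos and 3 from wild-type (WT) embryos, all at embryonic day 15.5. Each sample pooled the eyes of 6 embryos of a single dam, with the anterior segments dissected away and RNA taken from the posterior segments. The comparison asks how gene expression in the developing posterior eye differs without the receptor. The sources used here do not state the strain, the sex of the embryos or how much of Oa1 was deleted.

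Part of the lysosomal gene set shares a promoter motif, and these sequences are shown because genes with and without it are set side by side further on. The transcription factors TFEB, TFE3 and MITF, the last of which is a master regulator of pigment cells, recognise the E-box CACGTG, and TCACGTGA is the longer form found in many lysosomal promoters. Both are palindromes, so 1 search covers both strands, and every TCACGTGA holds a CACGTG. Promoters from 250 bases before to 50 bases after the start site were available from RefSeq (GRCm38.p6) for 30 of the 34 genes. CACGTG was found in the promoters of 10 of the 30 genes (33.3%), against 8.09% of 27025 genes with a promoter in the same table. TCACGTGA was found for 5 of the 30 (16.7%), against 1.12%. A match is a string of letters in this window and does not show that a factor binds there. The windows below cover 8 of the 10 genes, 5′ to 3′ on the strand of the gene, with each E-box in capitals.
Ctsa: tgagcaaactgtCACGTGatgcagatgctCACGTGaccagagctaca
Ctsd: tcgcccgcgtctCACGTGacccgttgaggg
Gaa: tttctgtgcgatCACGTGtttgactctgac
Lamp1: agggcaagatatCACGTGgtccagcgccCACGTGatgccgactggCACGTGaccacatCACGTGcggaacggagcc
Mcoln1: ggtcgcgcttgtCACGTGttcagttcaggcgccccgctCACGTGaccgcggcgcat
Atp6v1a: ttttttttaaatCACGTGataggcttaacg
Atp6v0b: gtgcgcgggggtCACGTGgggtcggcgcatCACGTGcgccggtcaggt
Atp6v0d1: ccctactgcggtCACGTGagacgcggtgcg

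The Ctsa window lies at chr2:164833749-164833795 on the plus strand, Gaa at chr11:119267811-119267840 (plus), Lamp1 at chr8:13159088-13159163 (plus) and Mcoln1 at chr8:3500436-3500491 (plus). On the minus strand are Ctsd at chr7:142387908-142387937, Atp6v1a at chr16:44139373-44139402, Atp6v0b at chr4:117887330-117887377 and Atp6v0d1 at chr8:105566050-105566079. Lamp1 holds 4 E-boxes in a single window, the first of them 61 and the last 15 bases before the start site. Ctsa, Mcoln1 and Atp6v0b hold 2 each. The eight-letter form is present for Ctsa, Ctsd, Mcoln1, Atp6v1a and Atp6v0d1. Ctsl and Glb1 hold 1 CACGTG each, and Ctsd a second one further upstream.

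The receptor's own probe set, the check of the genotype labels, read 28.3, 39.1 and 6.02 on the Oa1-/- arrays, against 250, 257 and 246 on the WT arrays. Its adjusted p in limma was 0.287 over all 27029 probe sets tested. Array medians ran from 93.6 to 129 in Oa1-/- and from 108 to 121 in WT, with Oa1-/- replicate 1 lowest. That array also had the highest signal of the 3′ 18S rRNA control, 6348, against 2608 to 2618 on the other Oa1-/- arrays and 1476 to 1988 on the WT arrays. WT replicate 3 stood apart in the Y-linked Eif2s3y, at 9.26 against at least 406 on the other 5 arrays. That value lies at background, below the lowest of the arrays' highest bacterial controls (22.1). Pigment cell genes were well measured, among them Dct at 8728 to 9838 in Oa1-/- and 7280 to 9961 in WT. Rpe65, of the mature pigment epithelium, lay at 3.30 to 4.75 in Oa1-/- and 4.46 to 11.7 in WT, below the lowest of the arrays' highest bacterial controls (22.1). Lens genes were strong although the anterior segment had been removed, with Cryba1 at 26634 to 28186 in Oa1-/- and 24064 to 28792 in WT. Since whole tissue was measured, fewer cells of a type and less RNA per cell cannot be told apart.

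No lysosomal gene passed the test between genotypes. All 34 measured genes lay above the low-signal filter, and 0 of them had an adjusted p below 0.05 in limma, their adjusted p running from 0.985 to 0.999. The background is the same: 0 of 27029 probe sets (0%) passed. At an unadjusted p below 0.05, 2 of the 34 genes (5.88%) were counted, Dnase2a higher and Gusb lower in Oa1-/-, against 4.11% of all probe sets (1111). In 4 of the 34 genes (11.8%) the 3 Oa1-/- arrays lay entirely on one side of the 3 WT arrays, against 10.2% of all probe sets. Both shares are near the background. These 4 were Ctsa, Gusb and Npc1, lower in Oa1-/-, and Dnase2a, higher.

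The sizes were small. Here and below a log2 difference is Oa1-/- minus WT on the log2(signal + 16) scale. It was positive for 18 genes and negative for 16, with a median of 0.02, against −0.01 over all probe sets tested, of which 47.5% were positive. Leaving out WT replicate 1 turned the median of the 34 genes to −0.04, and leaving out Oa1-/- replicate 1 turned it to −0.02. For 33 of the 34 genes it was smaller than 0.3 either way, as it was for 86.5% of all probe sets, and Dnase2a was the exception. The 95% interval of the log2 difference lay wholly within 0.5 either way, a 1.41-fold difference, for 31 of the 34 genes. The others were Dnase2a, Atp6v0a1 and Atp6v0b, and among all probe sets 50.7% were as tightly bounded. Since the 34 genes were read on their brightest probe sets and the background holds dimmer ones, neither 86.5% nor 50.7% is a share at like signal.

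**Figure D1:**
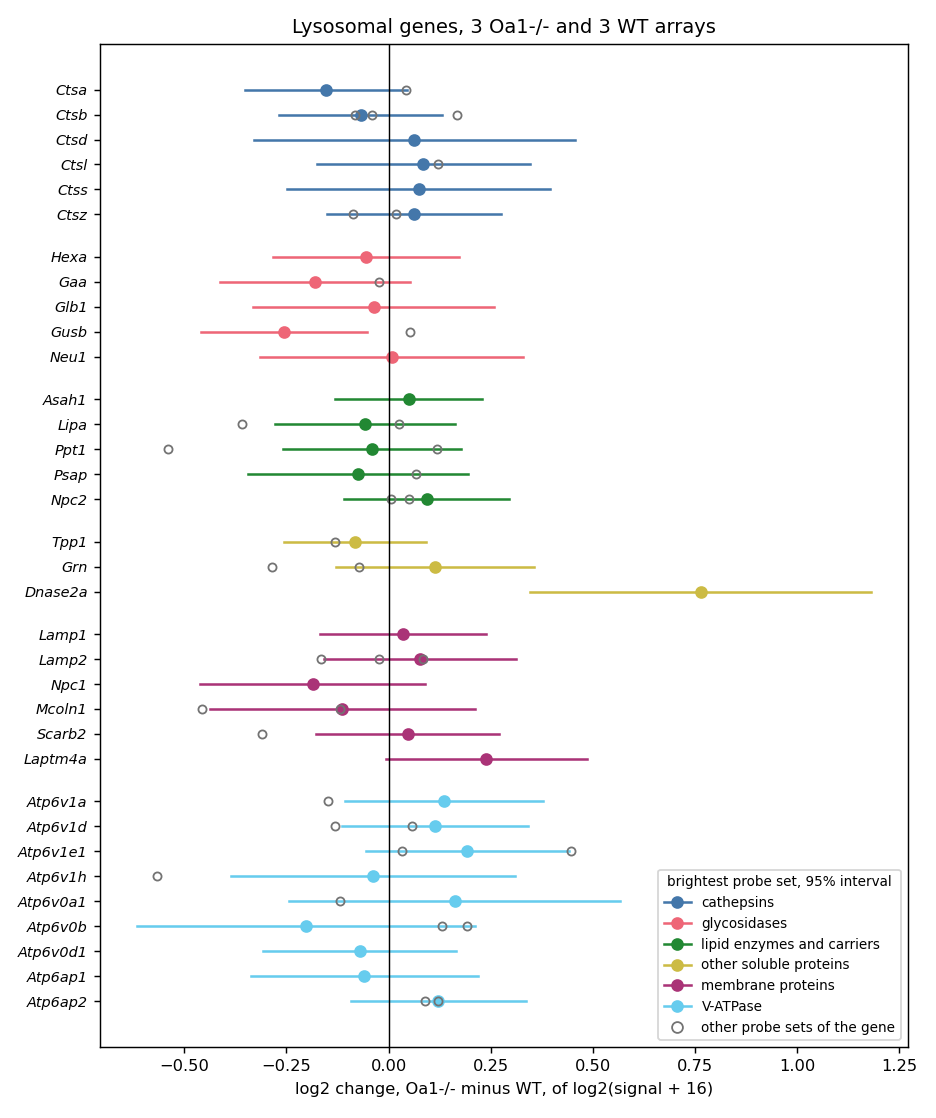
Log2 difference, Oa1-/- minus WT, of 34 lysosomal genes grouped by class. Filled points are the brightest probe set with its 95% interval from limma (3 Oa1-/- and 3 WT arrays), open circles are the other tested probe sets of the same gene. The intervals of Dnase2a, above 0, and Gusb, below 0, are those that leave out 0.

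The 6 cathepsins are the main lysosomal proteases. Ctsa, the protective protein that stabilises β-galactosidase and sialidase, had the smallest p of the class. Its signal was 1693, 1717 and 1523 on the Oa1-/- arrays, against 1734, 1909 and 1845 on the WT arrays. The groups did not overlap, but the highest Oa1-/- value and the lowest WT value were 1717 and 1734. The log2 difference was −0.15 (SE 0.09, 95% interval −0.35 to 0.04), with an unadjusted limma p of 0.112. The aspartic protease Ctsd averaged 3394 ± 386 in Oa1-/- and 3298 ± 768 in WT (SD, n = 3 each), a log2 difference of 0.06. Its WT values spread from 2436 on replicate 1 to 3909 on replicate 3, wider than the Oa1-/- values of 2957 to 3692.

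The cysteine proteases Ctsb, Ctsl, Ctss and Ctsz had log2 differences of −0.07, 0.09, 0.07 and 0.06. Ctss, which is typical of antigen-presenting cells, averaged 1247 ± 219 in Oa1-/- and 1174 ± 102 in WT (SD, n = 3 each). In all, 4 of the 6 cathepsins were positive and 2 negative, with a median log2 difference of 0.06. The sign of that median rested on single arrays. Leaving out WT replicate 1 gave −0.04, and leaving out Oa1-/- replicate 1 gave −0.02.

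Glycosidases cleave sugars from glycoproteins, glycolipids and polysaccharides. Gusb, β-glucuronidase, removes glucuronic acid from glycosaminoglycans, and it had the smallest p of the 5. Its signal was 1096, 994 and 1066 on the Oa1-/- arrays, against 1191, 1276 and 1311 on the WT arrays. Every Oa1-/- array lay under every WT array, and each group was tight. The means were 1052 ± 52.7 in Oa1-/- and 1259 ± 62.0 in WT (SD, n = 3 each), 0.837-fold, with a log2 difference of −0.26 (SE 0.09, 95% interval −0.46 to −0.05). The unadjusted limma p was 0.0198 and the adjusted p 0.985, so it did not pass. An exact permutation test of 3 arrays against 3 cannot go below 0.1, and that was its p. Its second, dimmer probe set differed the other way, with a log2 difference of 0.05.

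Gaa, acid α-glucosidase, which degrades glycogen, read 891, 891 and 999 in Oa1-/- and 1011, 994 and 1154 in WT, with overlapping groups. Its log2 difference was −0.18 (unadjusted limma p 0.113), and its other probe set gave −0.02. Hexa, the α subunit of β-hexosaminidase, had −0.06, and Glb1, β-galactosidase, −0.04. Neu1, the sialidase held by Ctsa, averaged 208 ± 0.782 in Oa1-/- and 207 ± 2.31 in WT (SD, n = 3 each). The class had 1 positive and 4 negative genes and a median of −0.06, which stayed negative when each array was left out in turn (−0.14 to −0.0063).

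The 5 lipid enzymes and carriers handle ceramides, cholesteryl esters, lipid anchors and cholesterol. Npc2, the soluble carrier that hands cholesterol to Npc1, had the smallest p among them. Its signal was 9693, 9314 and 8484 on the Oa1-/- arrays, against 7803, 8842 and 9151 on the WT arrays. The groups overlapped, and WT replicate 1 was the lowest array. The log2 difference was 0.09 (95% interval −0.11 to 0.29, unadjusted limma p 0.32). Acid ceramidase, Asah1, averaged 3632 ± 262 in Oa1-/- and 3505 ± 49.2 in WT (SD, n = 3 each), a log2 difference of 0.05. Lipa, the acid lipase for cholesteryl esters, Ppt1, which removes palmitate from proteins, and Psap, the precursor of the saposins, had −0.06, −0.04 and −0.08. With 2 positive and 3 negative genes the median was −0.04. It turned to 0.02 when WT replicate 3 was left out and to 0.0044 when Oa1-/- replicate 3 was.

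Of the other soluble proteins, Dnase2a stood apart. It encodes the acid DNase that digests DNA of engulfed cells and of expelled nuclei, a task best known in macrophages. Its signal was 433, 384 and 581 on the Oa1-/- arrays, against 234, 306 and 256 on the WT arrays. Every Oa1-/- array lay above every WT array, with replicate 3 highest among the Oa1-/- arrays. The means were 466 ± 103 in Oa1-/- and 265 ± 37.1 in WT (SD, n = 3 each). The log2 difference was 0.76 (SE 0.18, 95% interval 0.35 to 1.18), with an unadjusted limma p of 0.00273 and an adjusted p of 0.985, so it did not pass either. Its exact permutation p was 0.1.

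Dnase2a has 1 probe set here, of the type (suffix x) whose probes can match other transcripts, and no second probe set of its own to set beside it. It is not alone in this type, since 9 of the 34 brightest probe sets have the suffix x or s. The others are those of Gaa, Lipa, Grn, Mcoln1, Atp6v1e1, Atp6v0b, Atp6ap1 and Atp6ap2. Of 13 macrophage and microglial markers 7 were positive and 6 negative, and 0 had an unadjusted limma p below 0.05. Their summed signal was 5207 to 5417 in Oa1-/- and 5200 to 5652 in WT. Tpp1, a tripeptidyl peptidase, averaged 2863 ± 173 in Oa1-/- and 3028 ± 24.6 in WT (SD, n = 3 each). Grn, progranulin, a secreted and lysosomal glycoprotein, averaged 4602 ± 360 in Oa1-/- and 4263 ± 505 in WT (SD, n = 3 each). Their log2 differences were −0.08 and 0.11, and the median of the 3 genes was 0.11.

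Of the membrane proteins, Laptm4a, a small transmembrane protein of late endosomes and lysosomes, had the smallest p. Its signal was 12207, 10208 and 10471 on the Oa1-/- arrays, against 9563, 10210 and 8116 on the WT arrays. The groups overlapped, since Oa1-/- replicate 2 and WT replicate 2 were level. The log2 difference was 0.24 (95% interval −0.0063 to 0.49, unadjusted limma p 0.0549). Npc1, which moves cholesterol out of the lysosome, read 338, 391 and 349 on the Oa1-/- arrays, against 406, 405 and 420 on the WT arrays. All 3 Oa1-/- values lay below the WT values, which were close together. Its log2 difference was −0.19 (95% interval −0.46 to 0.09, unadjusted limma p 0.159), against 0.09 for its partner Npc2.

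Lamp1 and Lamp2, the main glycoproteins of the lysosomal membrane, had log2 differences of 0.04 and 0.08, and Lamp1 averaged 5888 ± 207 in Oa1-/- and 5764 ± 574 in WT (SD, n = 3 each). Scarb2, the sorting receptor of β-glucocerebrosidase, had 0.05. Mcoln1, a cation channel that releases calcium from the lysosome, had −0.11. The class counted 4 positive and 2 negative genes with a median of 0.04. Leaving out WT replicate 1 turned that median to −0.05, and leaving out Oa1-/- replicate 1 turned it to −0.0058.

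The V-ATPase has a cytosolic V1 part that splits ATP and a membrane V0 part that carries protons. Its 9 genes had a median log2 difference of 0.11, with 5 positive and 4 negative, and 0 with an unadjusted limma p below 0.05. Atp6v1e1, a subunit of the peripheral stalk, had the smallest p. Its signal was 4632, 4020 and 4099 on the Oa1-/- arrays, against 3291, 3643 and 4256 on the WT arrays. The groups overlapped through WT replicate 3, the second highest of the 6 arrays. The log2 difference was 0.19 (95% interval −0.05 to 0.44, unadjusted limma p 0.111).

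Atp6v1a, the catalytic subunit, and Atp6v1d, of the rotor, had log2 differences of 0.14 and 0.11. Atp6v1h, a regulatory subunit, had −0.04, so 3 of the 4 V1 genes were positive. Of the 3 V0 genes 1 was positive, Atp6v0a1 at 0.16, while Atp6v0b and Atp6v0d1 had −0.20 and −0.07. Atp6v0b had the widest interval of the pump, −0.62 to 0.21, and its WT replicate 3 read 2610 against 1573 and 1763 on the other WT arrays. The accessory proteins Atp6ap1 and Atp6ap2, which help to assemble the pump, had −0.06 and 0.12. The median of the 9 genes was −0.01 without WT replicate 2, which was the lowest of the 6 arrays in the score of the pump.

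**Figure D2:**
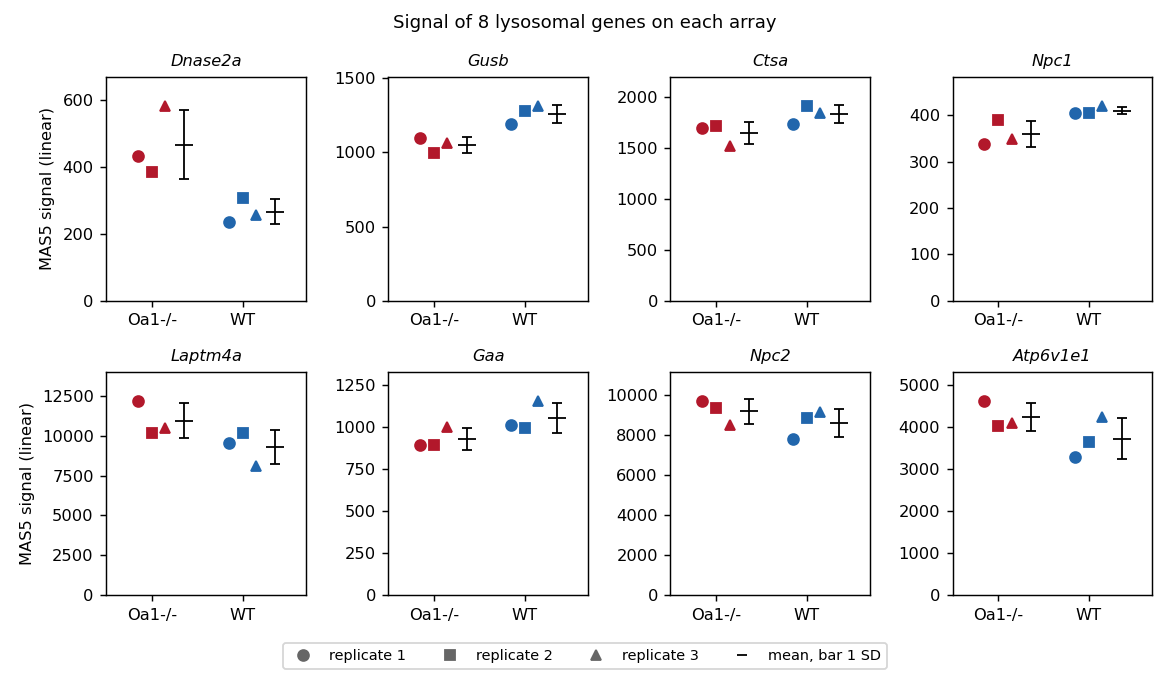
Deposited signal (linear scale from 0) of 8 lysosomal genes on each array, Oa1-/- left and WT right of each panel, with the mean and 1 SD (n = 3). The groups do not overlap for Dnase2a, Gusb, Ctsa and Npc1, and overlap for Laptm4a, Gaa, Npc2 and Atp6v1e1.

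The arrays of a genotype also differed among themselves. A score was taken for each class and array, the mean over its genes of the log2 difference from the mean of the WT arrays. Over all 34 genes it was 0.11, −0.0047 and −0.04 on the Oa1-/- arrays and −0.08, −0.0015 and 0.08 on the WT arrays, so the groups overlapped. Oa1-/- replicate 1 gave the highest signal for 15 of the 34 genes and WT replicate 3 for 14. WT replicate 1 gave the lowest for 11 and Oa1-/- replicate 3 for 9. Over all probe sets, those 4 shares were 17.6%, 19.7%, 19.4% and 12.9%. The 34 genes were read on their brightest probe sets and the background holds dimmer ones, so these shares do not compare like signals. The summed signal of all probe sets tested had a similar order. It was highest on Oa1-/- replicate 1 (32360907), then WT replicate 3 (32238956), and lowest on WT replicate 1 (31023296). The log2 score of all probe sets tested had another order. It was −0.12, 0.0072 and 0.04 on the Oa1-/- arrays, against 0.0093, 0.02 and −0.03 on the WT arrays, so Oa1-/- replicate 1 was lowest.

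By class, the score of the glycosidases was −0.06, −0.14 and −0.11 on the Oa1-/- arrays, against −0.10, 0.0035 and 0.10 on the WT arrays. It overlapped through WT replicate 1. The cathepsins scored 0.14, −0.05 and −0.06 on the Oa1-/- arrays, against −0.07, 0.04 and 0.03 on the WT arrays. The V-ATPase scored 0.18, −0.0006 and −0.06 on the Oa1-/- arrays, against −0.07, −0.10 and 0.17 on the WT arrays. Oa1-/- replicate 1 was the highest array in both classes, and the groups overlapped. The score of the other soluble proteins did not overlap, at 0.28, 0.19 and 0.32 in Oa1-/- and −0.12, 0.10 and 0.02 in WT. Of its 3 genes, Dnase2a had a log2 difference of 0.76. Grn and Tpp1 had 0.11 and −0.08, each with overlapping groups.

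**Figure D3:**
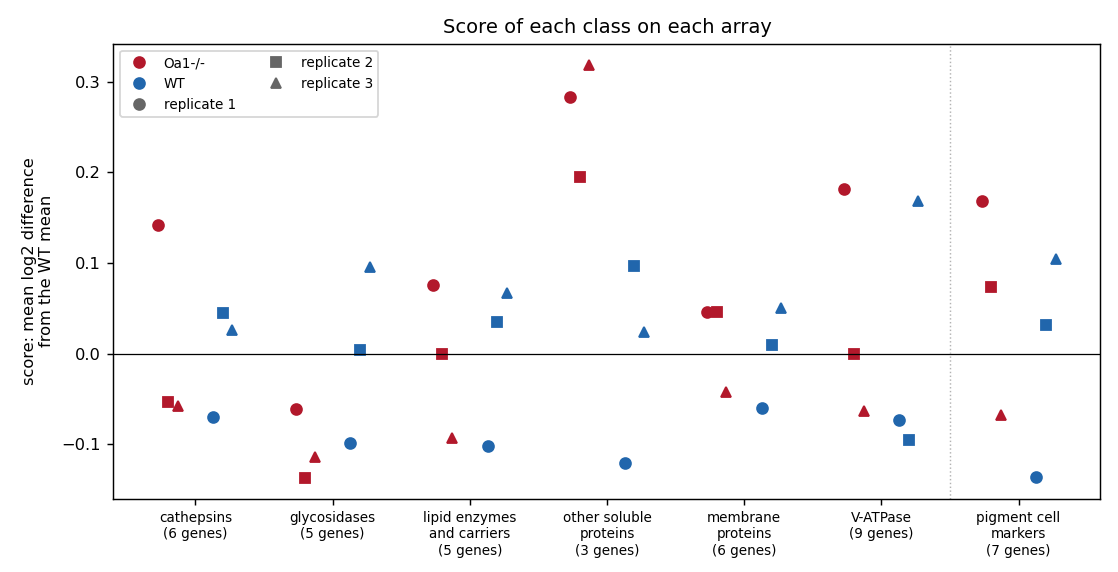
Score of each class on each array, the mean over its genes of the log2 difference from the WT mean, with Oa1-/- in red to the left of WT in blue. Pigment cell markers are right of the dotted line, with Oa1-/- replicate 1 highest (0.17) and WT replicate 1 lowest (−0.14). The groups overlap in every class but the other soluble proteins, which hold Dnase2a.

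Marker scores of cell types were set beside the score over all 34 genes. That score was highest on Oa1-/- replicate 1 and lowest on WT replicate 1. The score of 7 pigment markers above the filter was 0.17, 0.07 and −0.07 on the Oa1-/- arrays, against −0.14, 0.03 and 0.10 on the WT arrays. The score of 3 lens markers was 0.13, 0.06 and 0.04 on the Oa1-/- arrays, against −0.23, 0.11 and 0.13 on the WT arrays. Both were likewise highest on Oa1-/- replicate 1 and lowest on WT replicate 1. Muscle markers scored 0.67, −0.56 and 0.14 on the Oa1-/- arrays, against −0.62, −0.06 and 0.68 on the WT arrays, again lowest on WT replicate 1. On that array the summed signal of 3 blood markers was 22930, against 6819 to 9940 on the Oa1-/- arrays and 3485 and 8916 on the other WT arrays. Neural retina markers (6 genes) scored 0.09, 0.04 and 0.03 on the Oa1-/- arrays, against −0.06, −0.10 and 0.15 on the WT arrays. Like the 34 genes, they were higher on Oa1-/- replicate 1 and WT replicate 3 than on the other arrays, but lowest on WT replicate 2. The 13 macrophage and microglial markers were highest on WT replicate 2 (0.07) and lowest on WT replicate 3 (−0.09). The summed signal of the pigment markers was 25482 to 28808 in Oa1-/- and 22206 to 28952 in WT, without Rpe65, which lay near the bacterial controls. The part of tissue make-up in the lysosomal values was not tested. Of 4 measured markers of periocular mesenchyme 1 was positive and 3 negative, and their summed signal was 30979 to 31835 in Oa1-/- and 28802 to 36520 in WT. Their score was −0.22, −0.27 and −0.27 in Oa1-/-, against 0.06, −0.0078 and −0.05 in WT, and the groups did not overlap. The part of these cells in the lower values of Gusb, Ctsa and Npc1 was not tested. The X-linked genes Lamp2, Atp6ap1 and Atp6ap2 read 3749, 2935 and 5679 on WT replicate 3, inside the range of the other 5 arrays in each case. Ids, a further X-linked lysosomal gene described below, read 4027 on that array, lower than on the other 5 (4793 to 5659).

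**Figure D4:**
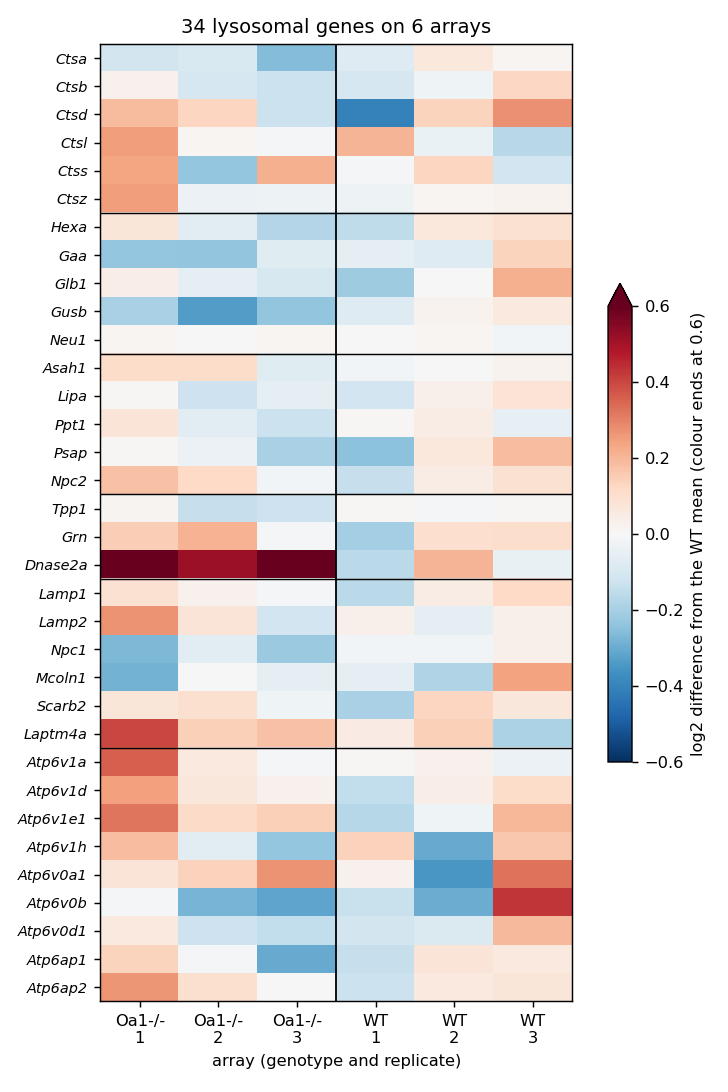
Log2 difference from the WT mean of each lysosomal gene (rows, by class) on each array (columns, Oa1-/- left and WT right of the line). The Dnase2a row is the only one with all 3 Oa1-/- arrays near or past the end of the colour scale. Oa1-/- replicate 1 is the highest array for 15 genes and WT replicate 3 for 14.

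Other probe sets annotated to the same gene gave further readings, some of them at far lower signal. Of 22 genes with more than 1 tested probe set, all probe sets had the same sign in 8 and differed in sign in 14. The 36 probe sets that were not the brightest of their gene had 18 positive and 18 negative log2 differences, with a median of −0.0086. Of these, 3 (8.33%) had an unadjusted limma p below 0.05, against 4.11% of all probe sets, and in 5 (13.9%) the groups did not overlap, against 10.2%. Each of these was lower in Oa1-/-. Over all probe sets the direction leaned the same way, with 662 lower and 449 higher of the 1111 with an unadjusted limma p below 0.05.

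The probe sets named next were chosen after their values were seen. The third Grn probe set by signal read 1249, 1110 and 1264 on the Oa1-/- arrays, against 1336, 1581 and 1513 on the WT arrays, a log2 difference of −0.29, while the brightest Grn probe set had 0.11. The dimmest Lipa probe set had −0.36, against −0.06 for the brightest. The dimmer Atp6v1h probe set had −0.57, against −0.04 for the brighter. That dimmer one read only 81.2 to 99.3 in Oa1-/- and 107 to 162 in WT, and the brighter one 1619 to 2275 over all arrays. The Grn pair thus differs in sign within a gene, and each adjusted p was 0.985 in limma. Mcoln1 was lower on all of its 3 probe sets, at −0.11, −0.12 and −0.46, and the groups did not overlap on the dimmest of them. Tpp1 was lower on both of its probe sets, at −0.08 and −0.13, with no overlap of the groups on the second. Npc2 and Atp6ap2 were positive on 3 tested probe sets each.

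The genes were also read by the E-box in their promoters. The 10 genes with CACGTG in the promoter had a median log2 difference of −0.05, with 4 positive and 6 negative, from −0.20 (Atp6v0b) to 0.14 (Atp6v1a). The 20 genes with a promoter and no E-box had a median of 0.07, with 13 positive and 7 negative, and both genes with an unadjusted p below 0.05 are among them. The difference between these medians was not tested, and they were not read with arrays left out. Lamp1, with its 4 E-boxes, had 0.04. Of the factors, Mitf averaged 1656 ± 133 in Oa1-/- and 1678 ± 211 in WT (SD, n = 3 each). Tfe3 averaged 447 ± 43.3 in Oa1-/- and 479 ± 86.8 in WT (SD, n = 3 each). Tfeb lay below the low-signal filter.

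The rest of the lysosome was read from a list of 64 further genes, of which 57 had a probe set and 53 passed the filter. It had 25 positive and 28 negative log2 differences and a median of −0.0053. Again 0 passed the adjusted threshold in limma, 3 (5.66%) had an unadjusted p below 0.05 and 10 (18.9%) had groups that did not overlap, beside the background of 4.11% and 10.2%. Ids, which removes sulfate from dermatan and heparan sulfate, read 5659, 5643 and 5465 in Oa1-/-, against 4793, 5319 and 4027 in WT, a log2 difference of 0.25. Arsb, another sulfatase of glycosaminoglycans, read 1055, 883 and 963 in Oa1-/-, against 1331, 1119 and 1073 in WT, a log2 difference of −0.27. Their unadjusted limma p was 0.0382 and 0.0436, and the adjusted p 0.985 for each. The other tested probe sets of Ids were higher as well, at 0.66 and 0.35, while that of Arsb had 0.22, the sign opposite to its brightest. Laptm5, of the membranes of blood-derived cells, read 253, 250 and 217 in Oa1-/-, against 313, 313 and 285 in WT, a log2 difference of −0.32 (unadjusted limma p 0.047). Its other tested probe sets went the other way, at 0.08 and 0.27, the second with no overlap of the groups.

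By role, the 24 other hydrolases and cofactors had 9 positive and 15 negative genes with a median of −0.04. The 5 sorting genes had a median of 0.10. Among them are the mannose 6-phosphate receptors, named here for their role: M6pr had −0.0053, while Igf2r had 0.22 on its brightest probe set and −0.21 on its other. The 12 other membrane proteins had 5 positive and 7 negative genes with a median of −0.11. The 10 further V-ATPase genes had 8 positive and 2 negative, with a median of 0.08.

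Taking both lists, 19 V-ATPase genes were tested, 13 positive and 6 negative, with a median log2 difference of 0.08. This joint count was made after the values of both lists were known. The median was positive when each array was left out in turn, from 0.03 without WT replicate 1 to 0.12 without WT replicate 3. On single arrays the joint score was 0.12, 0.06 and −0.0096 in Oa1-/-, against −0.10, −0.03 and 0.13 in WT, so the groups overlapped, and none of the 19 genes had an unadjusted limma p below 0.05.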

How the data were processed

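The authors deposited linear signal intensities, 1 per probe set and array, which the submitters' processing notes credit to MAS5 without a version. The mean after trimming 2% of probe sets at each end was 500.002 on every array, so each had been scaled to a common target. Of 45101 probe sets, 64 are controls. The platform annotation gave 1 symbol for 34945, several for 932 (never used for a name) and none for 9160, and all 34 genes were found in the RefSeq table.

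Signals were used as log2(signal + 16) and not normalized again. Probe sets whose mean lay above the 40th percentile were kept (27029, of 12902 genes). The genotypes were compared with limma 3.58.1 in R 4.3.3 (lmFit and eBayes, with an intensity trend), Oa1-/- minus WT, two-sided, with Benjamini-Hochberg adjustment over all 27029 and a threshold of 0.05. Scores and counts were made in Python 3.11.15. The code was tested on simulated data. Exact permutation tests were two-sided. Each replicate is a pool of embryos of a single dam, and p-values measure the spread between 3 such pools per genotype, which also limits the precision. Levels of different probe sets were compared only to pick the brightest of a gene and to name its others as dimmer. In a summed signal the bright probe sets weigh most.

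The labels name no batch or pairing, and the replicate numbers were not taken as pairs. Deviations of same-numbered arrays from their group means correlated at −0.29, 0.15 and −0.25. With 3 arrays per group these values cannot show whether same-numbered samples were handled together. The members and lists were chosen with earlier results of these data known. Values on every array were given for genes with an unadjusted p below 0.05, with groups that did not overlap or with the smallest p of a class, and for the 3 other lysosomal genes with the smallest p.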

Additional observations from a re-analysis of the deposited data

How the results depend on the processing

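No lysosomal gene passed the adjusted threshold under any of 19 alternatives, where the smallest adjusted p of a gene was 0.199 (Gusb, with array weights). Array weights also gave the only calls over all probe sets, 2. For 13 of the 34 genes the sign of the log2 difference was the same under every alternative that tested the gene. Dnase2a had an unadjusted limma p below 0.05 in 17 of the 17 alternatives that tested it (log2 difference 0.52 to 0.89), and Gusb in 14 of 19 (−0.31 to −0.10). The number of genes with an unadjusted p below 0.05, 2, was 1 with a filter at the 70th percentile, which leaves Dnase2a out, and 1 with median centring, 3 with array weights and without both WT replicate 3 and Oa1-/- replicate 1, and 1 to 2 with each array left out in turn. It was 2 on probe sets of 1 transcript group, with Grn, lower there at −0.29, in place of Dnase2a.

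The median of all 34 genes, 0.02, ran from −0.0412 to 0.0584, and was negative in 4 of the 19: without WT replicate 1, without Oa1-/- replicate 1, without both WT replicate 3 and Oa1-/- replicate 1, and when a gene's probe sets were averaged. The median of the other soluble proteins, 0.11, was 0.0161 with the 70th percentile filter, −0.184 on probe sets of 1 transcript group and −0.0814 when a gene's probe sets were averaged, where the membrane proteins had −0.0695. The lipid enzymes and carriers had 0.0251 on probe sets of 1 transcript group. The cathepsins, 0.06, had −0.0465 with array weights and −0.0597 without both WT replicate 3 and Oa1-/- replicate 1. With single arrays left out, the medians ran from −0.0360 to 0.0707 for cathepsins, −0.144 to −0.0063 for glycosidases, −0.0908 to 0.0183 for lipid enzymes and carriers, 0.0122 to 0.178 for other soluble proteins, −0.0487 to 0.0858 for membrane proteins and −0.0130 to 0.134 for the V-ATPase. The cause of these shifts was not tested, except that the 70th percentile filter and the transcript groups both leave out Dnase2a, and the transcript groups also take another Grn probe set. With the replicate number as a block, 2 genes had an unadjusted p below 0.05 and 0 probe sets passed, and the block changed no call. Probe sets near the bacterial controls (at most 22.1 to 39.3 on an array) have no measured level, and all 34 genes lay above them.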
